A study of Mus musculus with 3 samples.

Results

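The regions described here are the places on mouse chromosome 15 where HA-tagged NUR77 was found by chromatin immunoprecipitation and sequencing (ChIP-seq) in at least 2 of 3 replicates. Peaks of the 3 replicate lists that overlapped or abutted were joined into regions, and the members were chosen by 2 measured properties, position on chromosome 15 and a peak from at least 2 lists. This gave 388 of the 666 joined regions of chromosome 15, and 388 of the 6865 regions with at least 2 lists in the whole series. Because position and support chose the members, their number, density and support are descriptions with no test. The deposited peak scores and the peak widths were not part of the choice.

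All 3 samples belong to 1 group. They are C2C12 cells, a mouse myoblast line that grows as undifferentiated muscle precursors, carrying the pINDUCER20b-HA-NUR77 construct as a stable line and treated with doxycycline at 1 µg/mL for 18 hours. The bound protein was thus an overexpressed, epitope-tagged NUR77 and not the endogenous receptor alone, and how many clones the stable line holds was not given in the sources used here. An uninduced culture, an input library and a control antibody were not analysed here, and every position is given without a control. Separate days or cultures are not stated for the replicates, and part of their spread may be technical. Fixation was alike in all 3 samples and combined the crosslinkers DSG (2 mM, 45 min) and formaldehyde (1%, 15 min). Whether NUR77 touched the DNA of a region itself or was held there through another protein was not tested.

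NUR77, the product of Nr4a1, is an orphan nuclear receptor and an immediate early gene product. It binds DNA as a monomer at an extended half-site called the NBRE, as a dimer at a palindromic element called the NurRE, and together with retinoid X receptors. In skeletal muscle it is known as a regulator of glucose and lipid metabolism. The series title places NUR77 beside the transcription factor Yin-Yang 1 and mitochondria in macrophages, whereas the samples here are myoblasts. Nr4a1 itself lies on mouse chromosome 15, as do Myc, which encodes a growth-promoting transcription factor, Atf4, which encodes a stress-response factor, and Ppara, which encodes a nuclear receptor of fatty acid catabolism. The peaks are in mm9 coordinates and the RefSeq gene table used for these chromosome assignments follows GRCm38, so no region was assigned to these or other genes, exons, introns or promoters, and no sequence of a region was read.

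The lists held 253 peaks on chromosome 15 in replicate 1, 437 in replicate 2 and 584 in replicate 3. These were 5.66%, 5.63% and 5.40% of the 4468, 7756 and 10817 peaks of each list. The 3 lists thus differed by more than a factor of 2 in length but gave the chromosome a similar share, 5.57% ± 0.14 (SD, n = 3). Sequencing depth is unknown for all 3 lists. Peaks inside members numbered 242, 370 and 384 in replicates 1, 2 and 3, and no list had more than 1 peak in a member.

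Chromosome 15 carried NUR77 regions densely for its length. From its first to its last peak it spans 99.9 Mb, the 15th longest span of the 19 autosomes, and it held 3.88 members per Mb, or 1.39 times the density of members over the other autosomes. Chromosome 10 held more, at 4.63 per Mb, chromosome 11 followed at 3.79 per Mb, and the other 18 autosomes ranged from 2.07 to 4.63 per Mb with a median of 2.66. Peak density on chromosome 15 relative to all other autosomes was 1.39 in replicate 1, 1.38 in replicate 2 and 1.33 in replicate 3, a mean of 1.37 ± 0.04 (SD, n = 3). The corresponding means were 1.70 ± 0.09 for chromosome 10 and 1.36 ± 0.08 for chromosome 11. Chromosomes 15 and 11 differed by less than the spread between lists, and chromosome 11 stood above chromosome 15 in replicates 2 and 3. Counting regions with all 3 lists only, the density of chromosome 15 was 2.20 per Mb, again second to chromosome 10 with 2.52 per Mb.

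**Figure D1:**
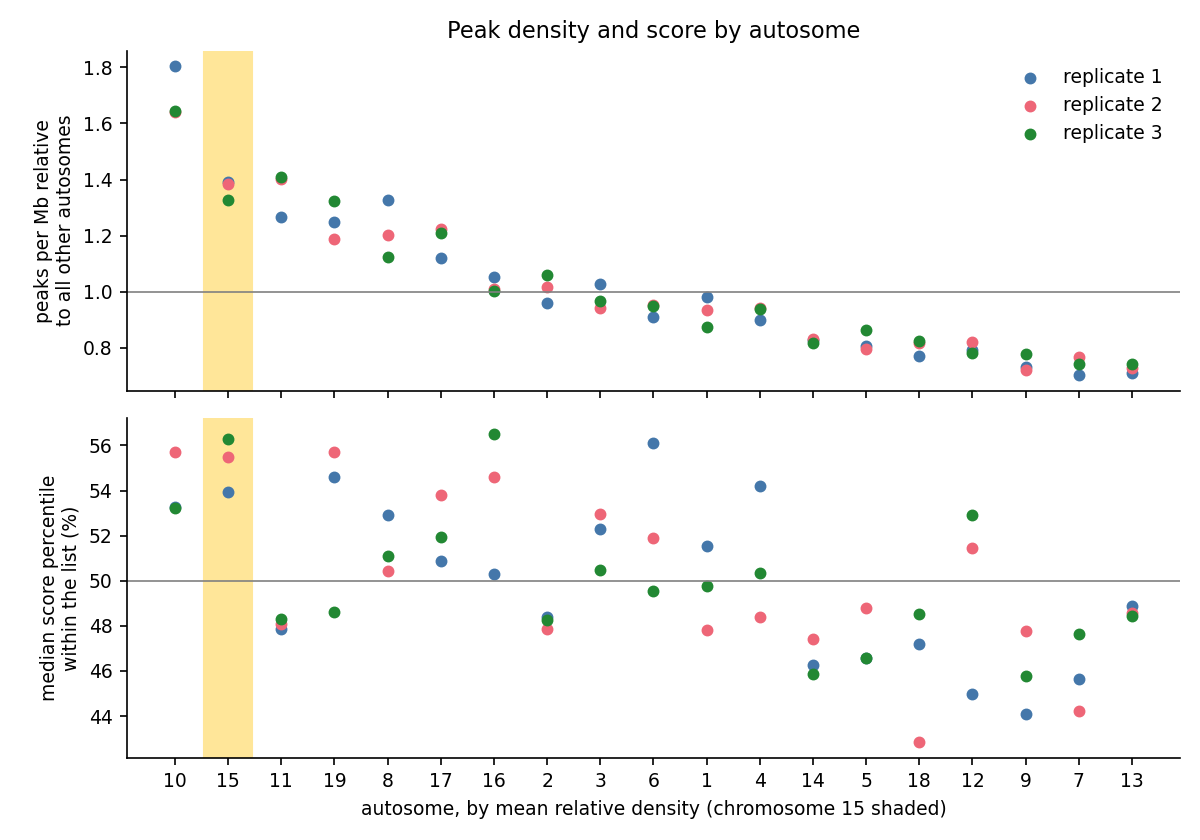
Peaks per Mb on each of the 19 autosomes relative to all other autosomes (upper panel) and the median score percentile of the peaks within their own list (lower panel), with 1 point per replicate and chromosomes ordered by mean relative density. Chromosome 15, shaded, lies at 1.33 to 1.39 in the upper panel, below chromosome 10, and at 53.9 to 56.3 in the lower panel.

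Along the chromosome the members were spread unevenly. In 1 Mb bins from the bin of the first member to that of the last, the median was 3 members, with quartiles of 1 and 6 and a maximum of 16. Of the 101 bins, 22 were empty (21.8%), compared with 30.7% of 2297 bins on the other autosomes. At the other end, 10 bins (9.90%) held at least 10 members, compared with 3.44% on the other autosomes, 15.7% on chromosome 10 and 3.36% on chromosome 11. These 10 bins together held 120 members, or 30.9% of all. The second part of the span, from 53.4 Mb on, held 242 members (62.4%) and the first part held 146. The share in the second part was 58.1% of peaks in replicate 1, 61.8% in replicate 2 and 62.7% in replicate 3, so each list leaned the same way.

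**Figure D2:**
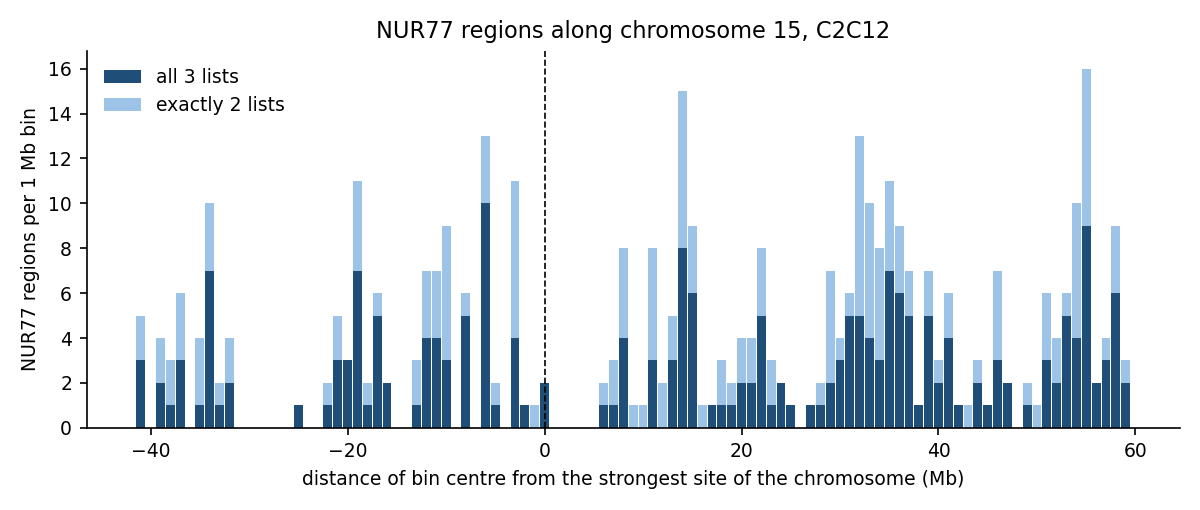
Members per 1 Mb bin along chromosome 15, as distance of the bin centre from the strongest site of the chromosome (dashed line), with regions in all 3 lists in dark blue and regions in exactly 2 lists in light blue. The highest bars reach 16, 15 and 13 members, and a run of 6 empty bins lies to the left and one of 5 to the right of the strongest site.

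The fullest 1 Mb bin ran from 99 to 100 Mb and held 16 members, 9 of them in all 3 lists. It had 9, 16 and 21 peaks in replicates 1, 2 and 3, and contained the sixth and the tenth strongest site of the chromosome. Which bin was fullest depended on the lists used. It remained the bin starting at 99 Mb without replicate 1. When all 3 lists were required, and without replicate 3, it was the bin starting at 38 Mb, with 10 members. Without replicate 2, the bins starting at 25 and 38 Mb tied with 10 members each. With equal numbers of best peaks and with peaks at or above the median score, the fullest was the bin starting at 58 Mb, with 12 and 11 members. The bin from 58 to 59 Mb held 15 members, 8 of them in all 3 lists, with 9, 17 and 25 peaks in replicates 1, 2 and 3. Its best site by score percentile averaged over the lists, chr15:58026111-58026783, scored 481.68, 457.89 and 461.46. These were lower than the best sites of the other full bins in each list. Another member of the bin, chr15:58817995-58818494, scored 289.27, 512.75 and 966.08, higher in replicates 2 and 3. The bin from 38 to 39 Mb held 13 members and was the one with the most triple support, with 10 in all 3 lists and a median mean score percentile of 82.2 (the percentile of a peak's score within its list, 100 for the best, averaged over the lists with a peak). The bin from 76 to 77 Mb also held 13 members, but 5 of them in all 3 lists, and its median mean percentile was 41.9. Bins with equal numbers of regions could thus hold mainly strong or mainly weak sites. Over the 79 occupied bins the number of members had a Spearman rho of -0.07 with the share in all 3 lists and 0.12 with the median score percentile. These bins share libraries and neighbours, and the coefficients are given only as a description.

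In 5 Mb bins, 3 stretches stood out. The bin from 75 to 80 Mb held 48 members, or 9.60 per Mb, 24 of them in all 3 lists. The bin from 95 to 100 Mb held 42, with 23 in all 3 lists, and the bin from 55 to 60 Mb held 39, with 20 in all 3 lists. Together they held 33.2% of the members in 3 of 21 bins. The next bin, from 80 to 85 Mb, held 27, with 19 in all 3 lists, and the median bin held 16. With peaks at or above the median score of their list, 2 of the 3 stretches remained among the 3 fullest bins, ties taken by position. At the low end, the bin from 45 to 50 Mb held none, that from 15 to 20 Mb held 1 and that from 0 to 5 Mb held 5. The 5 members of the last of these all lay between 3 and 4 Mb, where the median 1 Mb bin held 3. The first peak of chromosome 15 started at position 3383361, and no autosome had a peak before position 2999996. The bin from 0 to 5 Mb may thus be less sparse than its count makes it appear. The bin from 75 to 80 Mb had the most peaks in every list, with 28, 53 and 68 in replicates 1, 2 and 3. It remained the fullest when members had to be in all 3 lists (24) and when replicate 1, 2 or 3 was left out (46, 25 and 25).

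The profile was similar between the lists. Across the 21 bins of 5 Mb, the peak numbers of replicate 1 had a Spearman coefficient of 0.94 with those of replicate 2 and 0.96 with those of replicate 3, and replicates 2 and 3 had one of 0.99. Across 101 bins of 1 Mb the coefficients, in the same order, were 0.92, 0.93 and 0.95. All lists share the cell line, and empty bins add to such coefficients, which are descriptive. As a share of the chromosome 15 peaks of its list, replicate 1 lay above the others between 25 and 40 Mb. It had 7.11% of these peaks in each of the 3 bins there, against 5.72%, 6.64% and 5.72% in replicate 2 and 5.48%, 6.16% and 5.65% in replicate 3. In the bin from 95 to 100 Mb it lay below, with 9.09% against 10.3% and 10.4%.

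**Figure D3:**
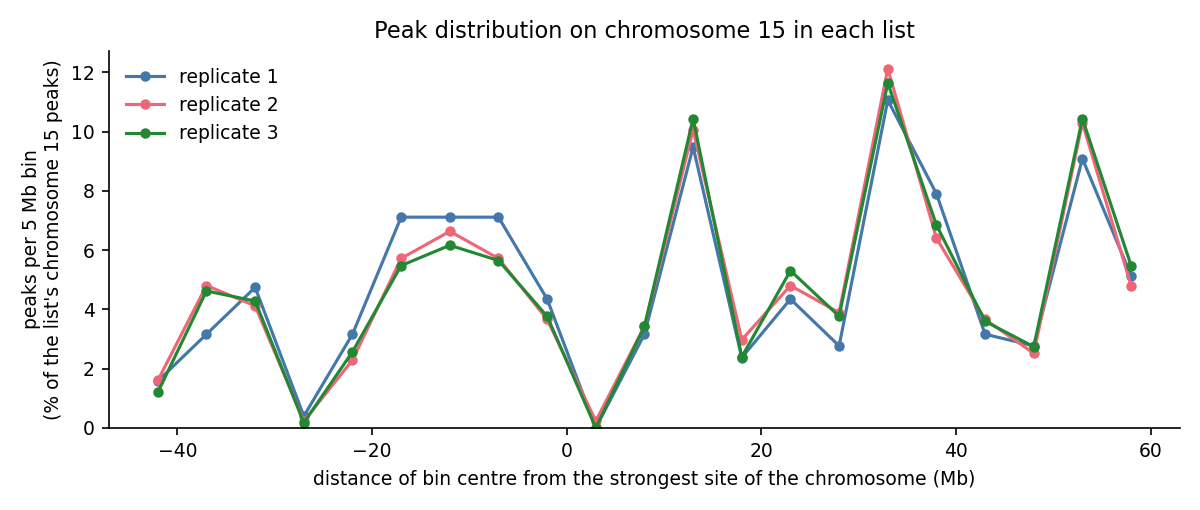
Peaks per 5 Mb bin as a percentage of the chromosome 15 peaks of each list, against the distance of the bin centre from the strongest site, with 1 line per replicate. The 3 lines rise and fall together, with peaks of 11.1 to 12.1% in the fullest bin and 0 to 0.23% in the emptiest.

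The longest stretch without a member was 6.31 Mb, between chr15:12778011-12778310 and chr15:19087195-19087633. No list had a peak in it. The region at its left edge was weak, absent from replicate 1 and scored 131.25 and 75.53 in replicates 2 and 3. The region at its right edge scored 182.58, 350.94 and 280.29 in replicates 1, 2 and 3, and was a lone site, with a further 3.18 Mb free of any peak to its right, up to chr15:22268711-22269010. Across both gaps the chromosome thus had 1 member. The second longest gap, 5.69 Mb, began at the strongest site of the whole chromosome, chr15:44498334-44498860, and ended at chr15:50193395-50193794. It held 2 regions from a single list, 1 from replicate 2 and 1 from replicate 3, the better of them at a score of 130.16. The third, 3.20 Mb between chr15:28063834-28064260 and chr15:31261461-31261794, held 4 regions from a single list, 2 from replicate 2 and 2 from replicate 3.

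Most of the 22 empty 1 Mb bins were empty in all lists: 18 had no peak in any list, and the other 4 held regions from a single list. The number of bins without a peak was 27 in replicate 1, 20 in replicate 2 and 19 in replicate 3. Gaps over 1 Mb numbered 25 of 387 (6.46%) and took up 47.5% of the distance between members, compared with 8.57% of gaps and 54.4% of the distance on the other autosomes. The longest gap of chromosome 15 ranked 13th among the 19 autosomes, whose longest gaps ranged from 4.37 to 9.54 Mb. The median gap was 76.4 kb (quartiles 27.8 and 224.7 kb), the second shortest of the 19, after 68.3 kb on chromosome 10. It was 115.2 kb over the gaps of the other autosomes. The median gap of chromosome 15 was 135.9 kb without replicate 2, 149.3 kb without replicate 3 and 84.9 kb without replicate 1.

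Clusters were defined as runs of members with at most 10 kb between neighbouring edges. By this measure 101 members (26.03%, 95% Wilson interval 21.9 to 30.6%) had a neighbour, compared with 20.5% (19.5 to 21.5%) on the other autosomes, 30.0% on chromosome 10 and 21.8% on chromosome 11. Such intervals cover counting error only, and neighbouring regions are not independent. The clustered members formed 37 pairs and 9 clusters of 3. No cluster on chromosome 15 had 4 or more members, whereas the other autosomes had 18 such clusters, the largest with 23. In the clusters of 3, 18 of the 27 members were in all 3 lists, compared with 220 of all 388 members (56.7%). Of the 9 clusters, 2 consisted only of regions in all 3 lists. When all 3 lists were required, 2 clusters of 3 remained, and without replicate 2 or without replicate 3 there were also 2. The share of members with a neighbour fell to 17.6% without replicate 2 and to 16.1% without replicate 3.

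The tightest cluster of 3 spanned 5889 bp, chr15:38382495-38388383, with all its regions in all 3 lists. Its outer regions were strong and the middle one weak. The left region scored 294.28, 598.37 and 741.40 in replicates 1, 2 and 3, and the right region 375.12, 491.10 and 677.53. The middle region, chr15:38387045-38387283, scored 82.38, 81.05 and 106.48, lower than both in every list, and lay 661 bp from its right neighbour. The cluster at chr15:41742695-41748910, 6216 bp long, had 1 strong region at its right end with scores of 392.04, 366.21 and 544.15, and 2 regions under a score of 160 in every list in which they occurred. The cluster at chr15:52585261-52592644 held 3 regions with mean score percentiles of 48.5, 47.2 and 46.6, but the lists differed. The outer regions lay at percentiles 3.94 and 11.6 in replicate 1, where the middle one was absent, and at 63.6 or higher in replicates 2 and 3. In the 9 clusters of 3, the best region reached a mean percentile above 90 in 6, and the weakest lay under 35 in 7. The difference between best and weakest had a median of 60.5 percentile points and ranged from 1.97 to 76.6.

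Clustered members had support and scores close to those of members without a neighbour. Of the 101 clustered members, 56 were in all 3 lists (55.4%, 45.7 to 64.8%), and of the 287 others, 164 (57.1%, 51.4 to 62.7%). The median score percentile was 55.6 against 55.8 in replicate 1, 62.4 against 62.6 in replicate 2 and 72.2 against 72.1 in replicate 3. The median joined width was 384 bp in both.

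The strongest site of the chromosome was chr15:44498334-44498860, with scores of 1215.40, 1580.51 and 1842.63 in replicates 1, 2 and 3. Scores are quoted as deposited and may not share a scale between lists. Among all peaks of its list it ranked 3 in replicate 1, 3 in replicate 2 and 2 in replicate 3. The part covered by all 3 lists was 473 bp long. It was poor in neighbours, with 2 members in its 1 Mb bin, the nearest 47.6 kb to the left, and the 5.69 Mb gap to its right. The strongest site thus lay in a sparsely marked stretch.

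The second site, chr15:55637861-55638394, scored 1011.60, 1502.31 and 1582.11 in replicates 1, 2 and 3 and was the right end of a cluster of 3 regions that were all in 3 lists. The third, chr15:7812884-7813410, scored 841.91, 1389.94 and 1659.19 and had its nearest neighbour at 14.4 kb. The fourth, chr15:10679345-10679894, scored 799.00, 1196.99 and 1457.72 and was the left end of a cluster of 3. The fifth, chr15:38314095-38314644, scored 802.36, 1083.32 and 1070.66, had a neighbour at 6.55 kb and lay in the 1 Mb bin with the most triple-supported regions. Of these 4 sites, 3 thus had another member within 10 kb, and all 4 ranked among the best 56 peaks of every list. Of the other sites among the 12 strongest, only chr15:76845345-76845810 had a member within 10 kb, at 7.33 kb. The nearest members of the rest, the strongest site included, lay at 35.05 to 71.7 kb. Over all members on chromosome 15 the share with such a neighbour was 26.03%.

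The sixth site, chr15:99554295-99554794, and the tenth, chr15:99665611-99666210, lay in the fullest 1 Mb bin. The sixth scored 613.75, 1184.47 and 1434.25, and the tenth 485.60, 1065.79 and 1123.96. The tenth was the widest of the 12 strongest, 600 bp after joining. The seventh, at chr15:73076984-73077460, scored 702.95, 889.79 and 1218.59, and its nearest neighbour, at 71.7 kb, was the most distant among the 12. The eighth, chr15:76845345-76845810, scored 574.50, 956.57 and 1133.97 and was the best of the 48 members of the fullest 5 Mb bin. The ninth, chr15:78626845-78627360, scored 603.03, 937.17 and 885.71.

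The eleventh and twelfth sites formed a pair of strong regions separated by 41.3 kb, chr15:25844745-25845194 and chr15:25886445-25886944. The first of them scored 502.20, 792.85 and 1562.54, and the second 498.55, 823.47 and 1320.91. Both ranked far higher in replicate 3 (ranks 7 and 19) than in replicate 1 (ranks 112 and 115) and replicate 2 (ranks 98 and 89). Their order among the strongest thus rested on replicate 3. Without replicate 3, 10 of the 12 strongest remained among the 12, without replicate 2 there were 11, and without replicate 1 all 12.

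**Figure D4:**
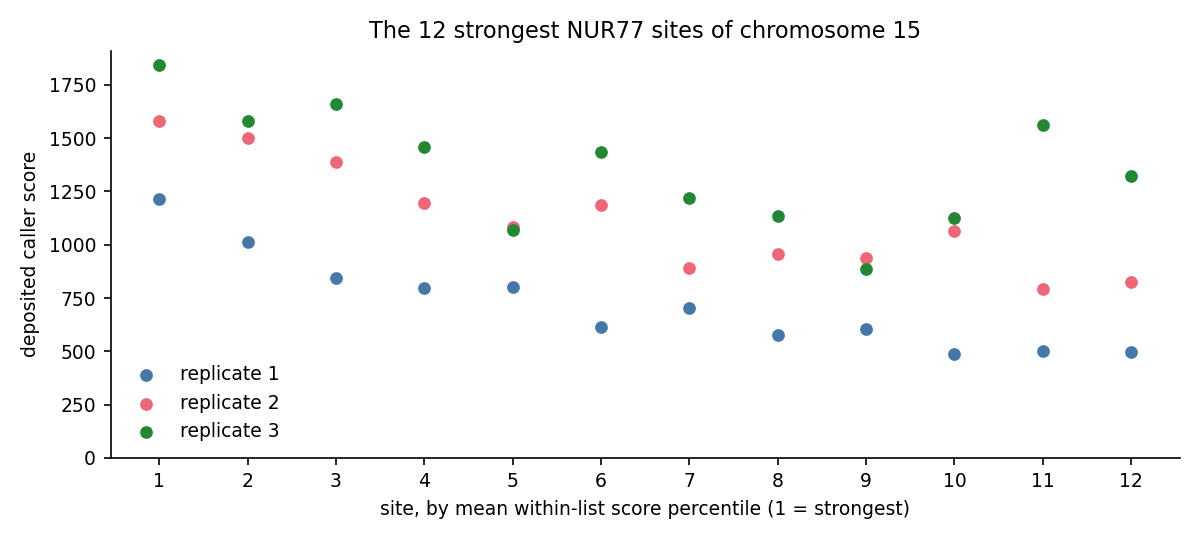
Deposited caller score of the 12 strongest sites of chromosome 15 in each replicate, ordered by mean within-list score percentile. The scores run from 1215.40, 1580.51 and 1842.63 at the first site down to 498.55, 823.47 and 1320.91 at the twelfth, with replicate 1 lowest at every site on a scale that may differ between lists.

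The positions of these sites repeated closely. At the 12 strongest, the midpoints of the 3 peaks lay within 11 to 48 bp of each other, which is below the steps of 50 bp in which the peak widths mostly fall. Over all 388 members the median distance between the outermost midpoints was 41.0 bp, and 232 (59.8%) lay within 50 bp. The largest distance was 252 bp. The joined width had a median of 384 bp (quartiles 334 and 450 bp). Members in all 3 lists had a median of 416 bp and those in 2 lists 334 bp, where joining more peaks can itself widen a region. The widest member, chr15:83095945-83096760, was 816 bp, made of peaks of 500, 400 and 750 bp with scores of 351.76, 429.88 and 664.88. The narrowest, chr15:58655011-58655160, was 150 bp, absent from replicate 1, and scored 105.72 and 100.96 in replicates 2 and 3. Width and mean score percentile had a Spearman rho of 0.77 across members, which share their libraries.

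The deposited scores of chromosome 15 were higher than those of the other autosomes in each list. The median score percentile within the list was 53.9 on chromosome 15 against 50.1 on the other autosomes in replicate 1, 55.5 against 49.9 in replicate 2 and 56.3 against 49.7 in replicate 3. The difference was 5.34 ± 1.42 percentile points (SD, n = 3), above 0 in 3 of 3 lists. An exact two-sided sign-flip permutation test over the lists gave p = 0.25, the smallest value that 3 lists allow, so this design cannot reach 0.05. The mean of the 3 medians, 55.2, was the highest of the 19 autosomes, followed by 54.1 on chromosome 10. Within single lists chromosome 15 ranked 4 in replicate 1, 3 in replicate 2 and 2 in replicate 3. The means of chromosomes 15 and 10 differed by about the SD of 1.19 that chromosome 15 had over its lists. Chromosome 11, which had a similar density, stood at 48.1. The median scores themselves were 122.57 on chromosome 15 against 114.97 in replicate 1, 131.50 against 120.86 in replicate 2 and 138.30 against 125.19 in replicate 3.

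The difference was present at the top of the lists. Of the chromosome 15 peaks, 13.0%, 12.8% and 13.2% were in the highest score decile of replicates 1, 2 and 3, compared with 9.90%, 9.91% and 9.94% on the other autosomes. Among the 100 best peaks of each list, chromosome 15 had 12, 15 and 14. Of the 100 regions in all 3 lists with the highest mean percentile, 15 were on chromosome 15, whereas it held 6.13% of the 3591 regions in all 3 lists. Per 10 Mb of span this was 1.50, the highest of the 19 autosomes, followed by 0.84 on chromosome 2, which also had 15 but is longer. Of the 200 such regions with the highest mean percentile, 19 (9.50%) were on chromosome 15 and 17 each on chromosomes 10 and 11, so the next 100 regions added 4. At the low end the lists differed: the lowest 25% of scores took 26.1% of chromosome 15 peaks in replicate 1, above the 24.8% of the other autosomes, and 22.2% and 21.2% in replicates 2 and 3, below 25.1% in both. Median peak widths were 300 bp in each list on chromosome 15 and 300, 300 and 349 bp on the other autosomes. The mean difference in median width was -16.3 ± 28.3 bp (SD, n = 3) and came from replicate 3 only (exact two-sided sign-flip permutation test, p = 1). With equal medians in replicates 1 and 2, this test could give no other value. Mean peak widths were lower on chromosome 15 in each list, which was not tested. They were 300.8 against 309.8 bp in replicate 1, 303.1 against 310.9 bp in replicate 2 and 325.2 against 330.6 bp in replicate 3.

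Support by the replicates was slightly higher on chromosome 15. Of its 666 regions, 388 (58.3%, 54.5 to 61.9%) had a peak from at least 2 lists, compared with 54.5% (53.6 to 55.4%) of 11733 on the other autosomes and 54.6% in the whole series. This was the highest share of the 19 autosomes, which otherwise ranged from 51.0 to 57.7%. The intervals overlapped at their ends. Among the members, 220 (56.7%, 51.7 to 61.5%) had all 3 lists, compared with 52.2% (51.0 to 53.4%) on the other autosomes and 52.3% in the whole series. The share was 57.7% on chromosome 3, the highest of the 19 autosomes, 54.3% on chromosome 10 and 49.9% on chromosome 11. With only peaks at or above the median score of their list, the excess of chromosome 15 over the other autosomes in the share with at least 2 lists was 0.62 percentage points, against 3.79 with all peaks.

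Each list's peaks were found in the others more often on chromosome 15. Of its replicate 1 peaks, 88.5% were found in replicate 2 and 94.1% in replicate 3, compared with 84.1% and 90.2% on the other autosomes. Of its replicate 2 peaks, 51.3% and 83.8% were found in replicates 1 and 3, compared with 48.5% and 80.3%. Of its replicate 3 peaks, 40.8% and 62.7% were found in replicates 1 and 2, compared with 37.3% and 57.6%. All 6 shares were higher on chromosome 15, by 2.79 to 5.03 percentage points, and the 6 are not independent, since they come from 3 lists. Within score quartile classes of the lists the picture was mixed. The share of peaks found in any other list was higher on chromosome 15 in 7 of 12 classes, with differences from -2.43 to 4.70 percentage points. In the lowest class it was higher in each list, at 87.9% against 85.5%, 62.9% against 59.8% and 31.5% against 26.7% in replicates 1, 2 and 3. In the highest class of replicate 3 it was lower, at 94.6% (90.3 to 97.0%) against 97.0% (96.3 to 97.6%).

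The 168 members in exactly 2 lists came mainly from the longer lists. Replicates 2 and 3 supplied 146 of them (86.9%), replicates 1 and 3 supplied 18, and replicates 1 and 2 supplied 4. On the other autosomes replicates 2 and 3 supplied 80.8%. Replicate 1 was thus present in 242 of the 388 members (62.4%), replicate 2 in 370 (95.4%) and replicate 3 in 384 (99.0%).

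Just inside and just outside the threshold of 2 lists the scores differed in the longer lists and little in replicate 1. Members in exactly 2 lists had a median score percentile of 21.8 in replicate 1 (22 regions), 38.6 in replicate 2 (150) and 51.6 in replicate 3 (164). The 278 regions from a single list, which are not members, had medians of 18.4 (11 regions), 22.4 (67) and 29.2 (200). Members in all 3 lists stood at 59.7, 79.5 and 84.9. The regions from a single list thus came mostly from replicate 3, with 71.9% of them, against 72.0% on the other autosomes.

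**Figure D5:**
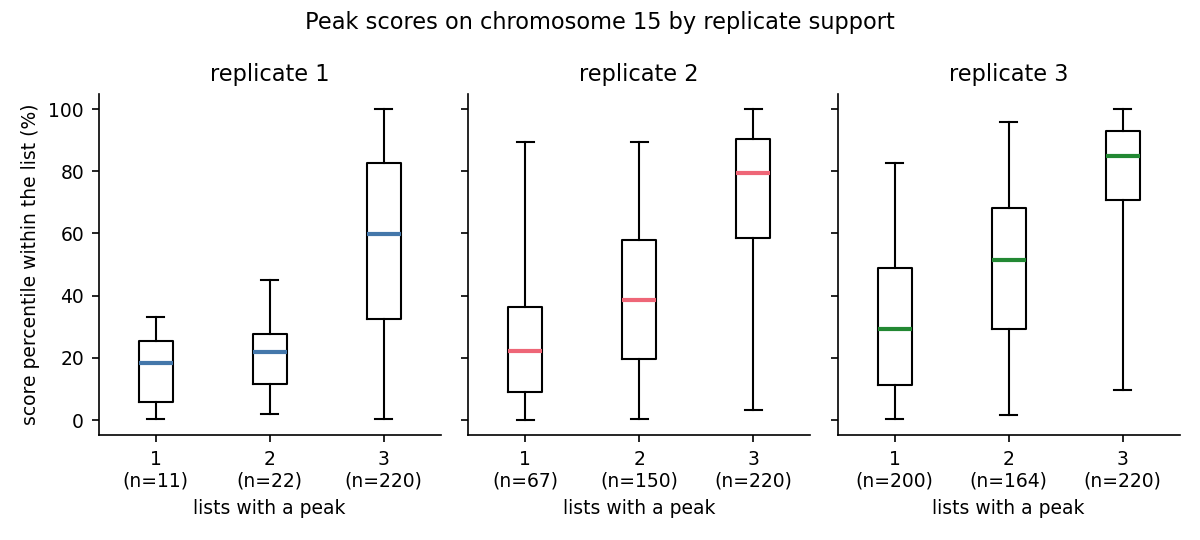
Score percentile within each list for chromosome 15 regions with a peak from 1, 2 or 3 lists, with the median as a coloured line, quartiles as a box and whiskers to the lowest and highest value. The medians rise with the number of lists in every replicate, with 18.4 against 59.7 at the ends in replicate 1, 22.4 against 79.5 in replicate 2 and 29.2 against 84.9 in replicate 3.

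Support and score did not always go together. The strongest member with exactly 2 lists, chr15:72985945-72986244, scored 321.47 in replicate 2 and 529.88 in replicate 3 and had no peak in replicate 1. The strongest region from a single list, chr15:43549211-43549460, scored 322.33 in replicate 2 and had no peak in replicates 1 and 3. A separate replicate 3 peak, chr15:43548695-43548894, lay close to its left without touching it and scored 184.56. At the other end, chr15:74880311-74880844 was in all 3 lists with scores of 70.12, 82.89 and 124.82, at percentile 0.22 in replicate 1, 17.5 in replicate 2 and 49.4 in replicate 3. It was thus near the lowest score of 70.02 in replicate 1 and in the middle of the list in replicate 3. The member in all 3 lists whose rank varied most was chr15:39602445-39602894, at percentile 7.45 in replicate 1, 69.2 in replicate 2 and 90.4 in replicate 3. Across the 220 members in all 3 lists, the median range of the percentile over the lists was 24.9 points, compared with 23.9 on the other autosomes. Their scores had Spearman coefficients of 0.76, 0.75 and 0.83 between replicates 1 and 2, 1 and 3, and 2 and 3, compared with 0.72, 0.71 and 0.79 on the other autosomes. Both are descriptions over regions that share the libraries.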

How the data were processed

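The series holds 3 ChIP-seq samples of 1 group, numbered by their titles. Each deposited list gives peak coordinates, names and scores. The names, per the file contents, contain the word MACS, a peak caller, and the submitters' processing notes name mm9 as the build. The sources used here state neither the caller's version, settings and control nor the statistic behind the deposited score, and scores were ranked only within a list. Percentiles run to 100 for the best peak. Reads and depth are unknown. Starts are printed counted from 1.

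Python 3.11.15 with pandas 2.3.3, NumPy 2.4.6, SciPy 1.17.1 and Matplotlib 3.10.9 joined peaks that overlapped or abutted. Members need 2 lists. Bins of 1 and 5 Mb start at the chromosome start and take a region by its midpoint; gaps run between edges. Score and width were compared with the other 18 autosomes by an exact sign-flip permutation test over lists. Shares carry 95% Wilson intervals. Joining, bins and clusters were checked on simulated lists. Regions named are the 12 strongest in all 3 lists, the fullest bins, the 3 clusters with most members in the shortest span, the 3 longest gaps and the width extremes; the regions in the last paragraph of the results, the fourth-ranked bins and gap, and the counts among the 100 and 200 strongest were chosen after their values were seen. So were chr15:58817995-58818494, the stretch from 25 to 40 Mb where replicate 1 lay above the others, and the 5 Mb bins named at the low end. Members and rules were chosen with earlier results of these data known. The deposited merged interval list was not used.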

Additional observations from a re-analysis of the deposited data

How the results depend on the processing

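Chromosome 15 kept rank 2 in member density and a positive score difference (4.47 to 6.66 percentile points) in all alternatives run. Without 1 replicate, the score difference is the mean over the remaining lists. The difference was above 0 in each list, so the sign of these values could not change. By peaks per Mb in each list alone, it ranked 2 in replicate 1, 3 in replicate 2 and 4 in replicate 3. The number of members was 247 with equal numbers of best peaks, 213 with peaks at or above the median score, 220 in all 3 lists and 224 to 366 without 1 replicate. Member density relative to the other autosomes, 1.39 as reported, was 1.48, 1.49 and 1.51 in the first 3 of these and 1.44 to 1.47 without 1 replicate. The share of regions in at least 2 lists was 65.3% with equal numbers of peaks and 39.7 to 55.9% without 1 replicate, and the share of members in all 3 lists 69.6% with equal numbers. The fullest 1 Mb bin, which was not the same bin in each setting, held 10 members in all 3 lists and 10 to 16 without 1 replicate, and the fullest 5 Mb bin 27 above the median score, 24 in all 3 lists and 25 to 46 without 1 replicate. Above the median score 34 bins were empty. The longest gap was 6.95 Mb with equal numbers, above the median score and in all 3 lists, and 6.31 to 6.95 Mb without 1 replicate, and overlapped the reported one each time. Members with a neighbour made up 17.0% with equal numbers, 15.5% above the median score, 16.4% in all 3 lists, 16.1 to 24.9% without 1 replicate, and 10.8%, 41.8% and 61.6% at 5, 25 and 50 kb. Clusters of at least 3 numbered 2, 1 and 2 in the first 3 settings, 2 to 9 without 1 replicate, and 2, 20 and 34 at 5, 25 and 50 kb. Fewer peaks or lists enter these settings by construction. The excess of chromosome 15 in the share of regions with at least 2 lists, 3.79 percentage points as reported, was 0.62 above the median score and 3.76 to 5.40 without 1 replicate. The median gap, 76.4 kb as reported, was 124.2 kb with equal numbers, 149.4 kb above the median score and 149.3 kb in all 3 lists. Of 114 alternative values, 65 did not change sign (score and width), stayed within the spread between lists or the counting interval of the share (for the excess in support, within the distance from that share to its bounds), or, for counts, stayed within 1.5 times; 49 moved and 0 reversed. Only the score, width and support-excess values could count as reversed, and of these not the score and width values without 1 replicate. Score and width values could not count as moved. A width difference of 0, found in several settings, counted as unchanged. Peak numbers in the names had 8, 27 and 41 gaps on chromosome 15 in replicates 1, 2 and 3.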
